A study of Mus musculus with 21 samples.

Results

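Sik1, Irs2, Ppargc1a and Crem are 4 genes that the transcription factor CREB is known to control, and they are followed here through all 21 libraries of a study of the neonatal mouse heart. They are 4 of the 18762 genes in the deposited table and were picked by symbol, with their changes against the control group already known. For that reason their differences from the control are given below as a description, with no test. The Entrez identifiers in the table are 17691 for Sik1, 384783 for Irs2, 19017 for Ppargc1a and 12916 for Crem.

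The samples are apex tissue of hearts from ICR mice taken at postnatal day 7, after the tip of the ventricle had been cut off (apical resection) at an age of 1 day. All 7 groups carry this injury, and each group has 3 libraries. The drug groups were injected subcutaneously over 7 consecutive days with isoproterenol, amiodarone, metoprolol, propranolol, lidocaine or ivabradine, and the control group is described as apical resection alone, without a statement on its injection. Isoproterenol activates β-adrenergic receptors, whereas the other 5 drugs are anti-arrhythmics. Metoprolol and propranolol block β-adrenergic receptors, lidocaine blocks sodium channels, amiodarone blocks potassium and other channels, and ivabradine reduces the pacemaker current. Doses are not labelled. Whether the 3 libraries within a group represent different animals is not stated either, so p-values measure only the spread between libraries, which may be technical.

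CREB is activated when cyclic AMP, made in the heart downstream of β-adrenergic receptors, releases protein kinase A, which phosphorylates CREB in the nucleus. Coactivators of the CRTC family then join it at cAMP response elements in promoters. Calcium signals reach CREB by other kinases, so its targets respond to more than 1 pathway. The 4 genes sit at different places in this circuit. Sik1 encodes a salt-inducible kinase that phosphorylates CRTC coactivators and class IIa histone deacetylases, and so acts back on the pathway that induces it. Irs2 encodes an adaptor that links the insulin and IGF1 receptors to PI3 kinase. Ppargc1a encodes PGC-1α, a coactivator of nuclear receptors that drives mitochondrial biogenesis and fatty acid oxidation. Crem encodes the cAMP response element modulator, whose short products, named ICER, repress the same elements.

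The promoters below are shown because CREB binds DNA at the cAMP response element. Each is read 5′ to 3′ on the minus strand, from 250 bases before to 50 bases after the start of the gene, as RefSeq gives it for build GRCm38.p6. Capitals mark the core of the element, written TGACG, or CGTCA when read on the opposite strand.
Irs2, chr8:11008880-11009179: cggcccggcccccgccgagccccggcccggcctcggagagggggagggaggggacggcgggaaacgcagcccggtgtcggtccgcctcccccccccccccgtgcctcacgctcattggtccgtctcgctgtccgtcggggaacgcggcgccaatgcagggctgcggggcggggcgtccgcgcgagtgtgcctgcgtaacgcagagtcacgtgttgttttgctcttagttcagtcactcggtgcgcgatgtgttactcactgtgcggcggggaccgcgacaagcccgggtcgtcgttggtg
Ppargc1a, chr5:51567676-51567975: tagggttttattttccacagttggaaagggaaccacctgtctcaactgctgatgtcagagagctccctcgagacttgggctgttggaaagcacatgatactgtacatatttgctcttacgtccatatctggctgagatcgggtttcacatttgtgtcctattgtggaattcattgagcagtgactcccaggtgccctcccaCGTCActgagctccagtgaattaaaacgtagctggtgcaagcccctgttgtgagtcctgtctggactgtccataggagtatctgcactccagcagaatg
The Ppargc1a window holds 1 core, CGTCA, which begins 49 bases before the start. The Irs2 window holds no core on either strand and is rich in G and C, with a GC content of 72.0% against 48.7% in the Ppargc1a window. The full palindrome TGACGTCA, which contains the core on both strands, stands in neither window. Over 32851 promoters of the same length, 20.8% hold the core on either strand and 1.79% hold the full palindrome. A match describes only these letters, and its absence says only that they do not stand in this window.

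Levels are FPKM, fragments scaled to transcript length and to the mapped total of the library. All 4 genes stood at 1 FPKM or more in every library, the lowest value being 1.62 FPKM, and each passed the filter for testing together with 12433 genes in all. The sums of FPKM ran from 496304 to 552905 per library, and a comparison of the smallest steps in low values gave relative depths of 0.983 to 1.02. Summed markers of cardiomyocytes ran from 32330 to 37291 FPKM in drug libraries and from 33702 to 35980 FPKM in controls, with all 6 markers far above 0. Single markers moved within this sum. Myh6 was 5493 to 6689 FPKM in drug libraries against 4618 to 5059 FPKM in controls. Ryr2 was 45.3 to 71.0 FPKM against 36.3 to 39.9 FPKM. Myl2, the largest part, lay below all controls with isoproterenol, amiodarone, propranolol and lidocaine. It overlapped them with metoprolol and ivabradine. In bulk tissue, fewer cells of a type and less RNA per cell cannot be told apart. Transcripts of other tissues stood out in some libraries. Myl7 (atrium) was 176 FPKM in isoproterenol 3 and at most 3.26 FPKM elsewhere. Sftpc (lung) was 222 FPKM in amiodarone 2, 9.10 FPKM in lidocaine 1 and at most 0.14 FPKM elsewhere. Alb (liver) was 10.8 FPKM in propranolol 1 and at most 0.97 FPKM elsewhere. Mylpf (skeletal muscle) was 62.7 FPKM in control 3 and at most 30.4 FPKM elsewhere. Values that change without the 4 libraries in which 1 of these genes was highest, isoproterenol 3, amiodarone 2, propranolol 1 and control 3, are given below.

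Sik1, the kinase of the feedback arm, was lowest in the control group and higher in all drug groups. Its level was 15.28, 17.08 and 18.88 FPKM in the isoproterenol libraries, 38.32, 39.75 and 34.81 FPKM with amiodarone, and 38.15, 53.99 and 45.39 FPKM with metoprolol. It was 17.19, 27.52 and 19.42 FPKM with propranolol, 55.19, 75.30 and 65.09 FPKM with lidocaine, 30.09, 30.06 and 68.35 FPKM with ivabradine, and 8.27, 8.11 and 8.89 FPKM in controls. Each of the 18 drug libraries lay above each control library, and the third ivabradine library stood well above the other 2. Among all tested genes, the share with 3 drug libraries above the 3 controls was 12% with isoproterenol, 13% with amiodarone, 14.7% with metoprolol, 11.4% with propranolol, 15.2% with lidocaine and 10.1% with ivabradine. Because the genes were chosen on these contrasts, nothing is read from their place against these shares.

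The group means of Sik1 were 65.2 ± 10.1 FPKM with lidocaine, 45.8 ± 7.93 with metoprolol, 42.8 ± 22.1 with ivabradine, 37.6 ± 2.54 with amiodarone, 21.4 ± 5.44 with propranolol, 17.1 ± 1.80 with isoproterenol and 8.42 ± 0.412 in controls (SD, n = 3 each). The lowest lidocaine library, at 55.19 FPKM, lay just above the highest metoprolol library, at 53.99 FPKM. The third ivabradine library, at 68.35 FPKM, lay within the lidocaine range. Amiodarone, ivabradine and metoprolol overlapped as neighbours, as did isoproterenol and propranolol. On the log2(FPKM + 1) scale, which understates changes at low levels, the differences from control were 0.94 with isoproterenol, 2.03 with amiodarone, 2.30 with metoprolol, 1.22 with propranolol, 2.80 with lidocaine and 2.11 with ivabradine (SE 0.23 each). Without the third ivabradine library the ivabradine difference was 1.72.

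Irs2, the insulin receptor adaptor, spanned the widest ratio of the 4 genes. It was 4.20, 4.30 and 5.94 FPKM with isoproterenol, 24.27, 23.68 and 12.73 FPKM with amiodarone, and 13.73, 26.13 and 19.93 FPKM with metoprolol. It was 7.51, 10.51 and 6.36 FPKM with propranolol, 19.84, 32.84 and 30.22 FPKM with lidocaine, 5.26, 7.31 and 22.02 FPKM with ivabradine, and 1.62, 2.01 and 2.23 FPKM in controls. All 18 drug libraries again lay above the controls, and the third ivabradine library was again the high one of its group. The lidocaine mean of 27.6 ± 6.88 FPKM was 14.1 times the control mean of 1.95 ± 0.309 FPKM, and the isoproterenol mean of 4.81 ± 0.977 FPKM was 2.46 times that control mean (SD, n = 3 each).

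Between these ends of the Irs2 range, the means were 20.2 ± 6.50 FPKM with amiodarone, 19.9 ± 6.20 with metoprolol, 11.5 ± 9.14 with ivabradine and 8.13 ± 2.14 with propranolol (SD, n = 3 each). From propranolol up to lidocaine every neighbouring pair of groups overlapped, while the isoproterenol libraries lay below all propranolol libraries and above all controls. The log2 differences from control were 0.97 with isoproterenol, 2.80 with amiodarone, 2.79 with metoprolol, 1.61 with propranolol, 3.25 with lidocaine and 1.85 with ivabradine (SE 0.36 each). Leaving out the third ivabradine library took the ivabradine difference to 1.29.

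Ppargc1a, the coactivator of oxidative metabolism, varied less and in another order. Its level was 16.57, 12.52 and 14.20 FPKM with isoproterenol, 14.85, 14.80 and 14.60 FPKM with amiodarone, and 16.81, 16.54 and 18.47 FPKM with metoprolol. It was 15.22, 14.93 and 13.47 FPKM with propranolol, 23.32, 26.20 and 16.68 FPKM with lidocaine, 20.54, 24.02 and 35.50 FPKM with ivabradine, and 12.46, 10.11 and 10.22 FPKM in controls. The drug libraries were all above the controls, by a small margin for isoproterenol, whose lowest library stood at 12.52 FPKM against a highest control of 12.46 FPKM. Ivabradine, not lidocaine, had the highest mean, 26.7 ± 7.83 FPKM, followed by lidocaine at 22.1 ± 4.88 FPKM and metoprolol at 17.3 ± 1.05 FPKM. The controls stood at 10.9 ± 1.33 FPKM (SD, n = 3 each). The lead over lidocaine rested largely on the third ivabradine library. The first and second, at 20.54 and 24.02 FPKM, lay within the lidocaine range.

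The amiodarone, propranolol and isoproterenol means of Ppargc1a, between 14.4 and 14.8 FPKM, lay within the spread of their libraries, and ivabradine, lidocaine and metoprolol overlapped as neighbours. The log2 differences from control were 0.37 with isoproterenol, 0.41 with amiodarone, 0.62 with metoprolol, 0.39 with propranolol, 0.93 with lidocaine and 1.18 with ivabradine (SE 0.16 each). Without the third ivabradine library the ivabradine difference was 0.97, close to the 0.93 with lidocaine.

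Crem, unlike the other genes, did not lie above the controls in all drug groups. It was 6.65, 5.18 and 5.02 FPKM with isoproterenol, 5.22, 6.25 and 6.78 FPKM with amiodarone, and 6.74, 7.07 and 7.23 FPKM with metoprolol. It was 5.05, 5.55 and 5.62 FPKM with propranolol, 7.60, 8.76 and 6.77 FPKM with lidocaine, 8.02, 6.74 and 9.34 FPKM with ivabradine, and 6.81, 6.42 and 6.32 FPKM in controls. The propranolol libraries lay below all controls, a place that 31.2% of all tested genes shared, and the other 5 drug groups overlapped the controls. Group means ran from 5.41 ± 0.311 FPKM with propranolol to 8.03 ± 1.30 FPKM with ivabradine, with the controls in between at 6.52 ± 0.259 FPKM (SD, n = 3 each).

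In the order of the Crem means, propranolol, isoproterenol, amiodarone, control, metoprolol, lidocaine and ivabradine, every neighbouring pair overlapped. From amiodarone up, the drugs stood in the same order as for Ppargc1a. The log2 differences from control were -0.19 with isoproterenol, -0.09 with amiodarone, 0.09 with metoprolol, -0.23 with propranolol, 0.21 with lidocaine and 0.26 with ivabradine (SE 0.11 each). Without the third ivabradine library the ivabradine difference was 0.15, below the 0.21 with lidocaine, so the order of lidocaine and ivabradine turned round. The deposited entry for Crem covers 48 transcripts, so the repressor ICER cannot be separated from longer CREM products. The Ppargc1a entry covers 10 transcripts, and those of Sik1 and Irs2 cover 1 each.

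**Figure D1:**
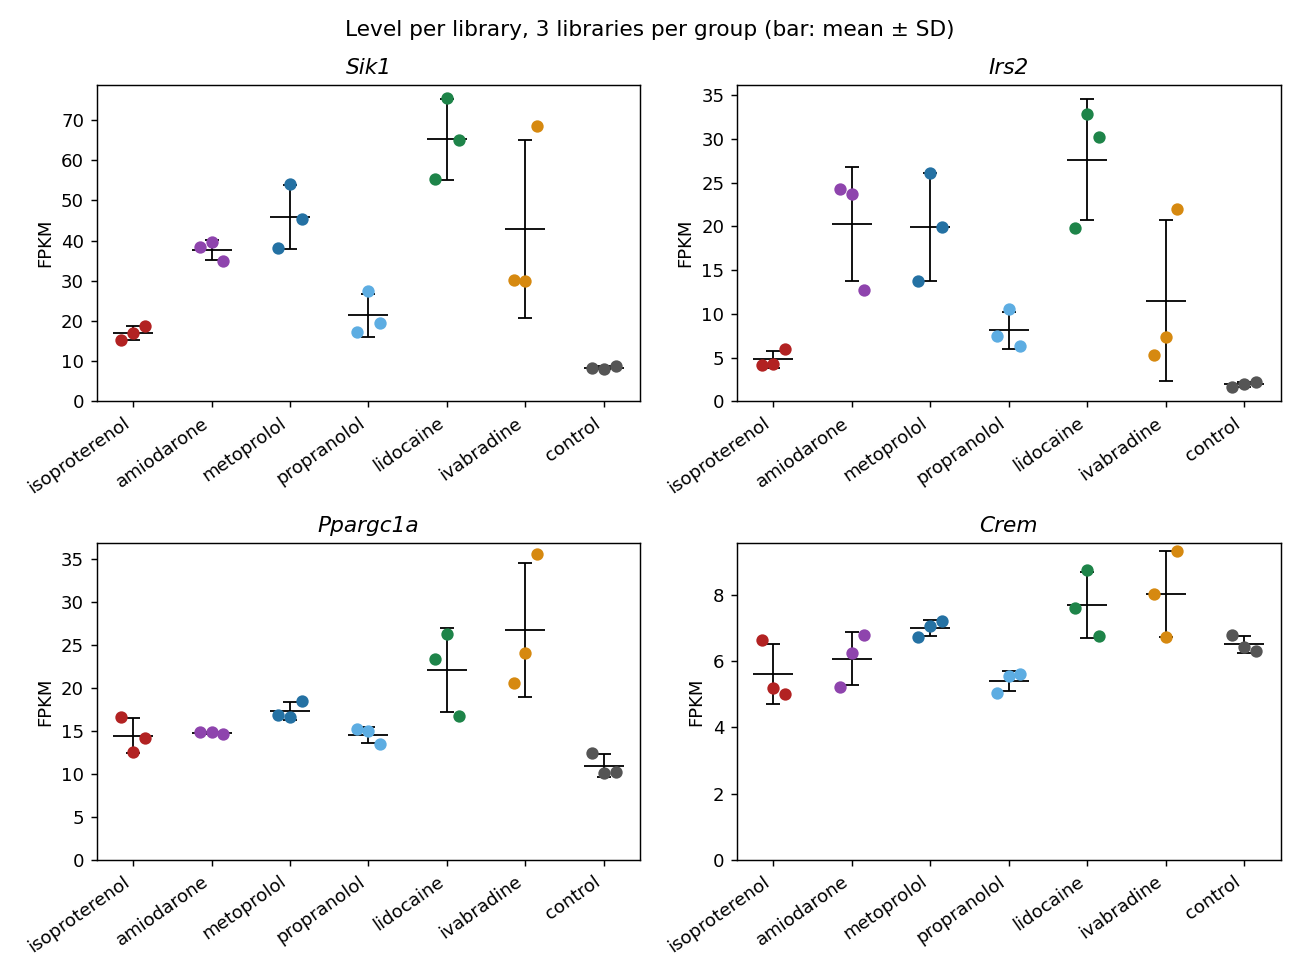
Level in FPKM (linear axes from 0) of Sik1, Irs2, Ppargc1a and Crem in each of the 21 libraries, by drug group with the control at the right; points are libraries, the wide bars are means and the error bars are SD (n = 3). Sik1, Irs2 and Ppargc1a points of all 6 drug groups lie above the controls, Crem points do not, and the third ivabradine library is the highest of its group for all 4 genes.

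Isoproterenol, the receptor agonist, was set beside the anti-arrhythmics. Its log2 differences in Sik1 were -1.10 against amiodarone, -1.36 against metoprolol, -0.29 against propranolol, -1.87 against lidocaine and -1.17 against ivabradine. For Irs2 the differences were -1.83 against amiodarone, -1.82 against metoprolol, -0.64 against propranolol, -2.28 against lidocaine and -0.88 against ivabradine. Of the 5 anti-arrhythmics, propranolol therefore came nearest to isoproterenol for both genes by group means. For Irs2 this rested on the third ivabradine library. Without it, the Irs2 difference from control was 1.29 with ivabradine, between 0.97 with isoproterenol and 1.61 with propranolol. In Irs2 the isoproterenol libraries also overlapped those of ivabradine, and they lay below all propranolol libraries. Ppargc1a differed by -0.57 against lidocaine, -0.82 against ivabradine, -0.25 against metoprolol, and -0.04 and -0.02 against amiodarone and propranolol. For Crem they ran from -0.45 against ivabradine to 0.04 against propranolol. These differences carry the same SE as those against control and were not tested, since they entered the choice of the genes.

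The differences among the 5 anti-arrhythmic groups do not involve the control. The genes were still chosen with these libraries seen. The F test and the later test of metoprolol against propranolol therefore describe the genes and are no independent evidence. An F test of the 5 group means in limma, with Benjamini-Hochberg adjustment over all tested genes, called 132 genes, 1.06% of those tested. Sik1 (adjusted p = 0.012) and Ppargc1a (adjusted p = 0.032) were among them, while Irs2 (adjusted p = 0.069) and Crem (adjusted p = 0.086) missed the threshold of 0.05 in the same limma test. Both calls were lost without the 4 libraries with transcripts of other tissues, where the adjusted p from limma was 0.20 for Sik1 and 0.23 for Ppargc1a and the count of called genes was 11. The Sik1 call was also lost without the first propranolol library (adjusted p = 0.062 in limma) or the third (0.064), and the Ppargc1a call was lost without each of 10 libraries in turn, with an adjusted p of up to 0.083. The Ppargc1a call was lost as well with no filter on low values (adjusted p = 0.085 in limma), in a fit of the 5 groups alone (0.060) and with robust moderation (0.052). Irs2 passed in limma without the third ivabradine library (adjusted p = 0.0023) or the third amiodarone library (0.049). Crem passed without the second ivabradine library (adjusted p = 0.037) or the first isoproterenol library (0.050 after rounding).

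The 10 pairs of anti-arrhythmic groups are described by their log2 differences with 95% intervals, without tests. For Sik1 the widest gap was between propranolol and lidocaine, at -1.58 (-2.06 to -1.10), and the same pair differed by -1.64 (-2.39 to -0.89) for Irs2. Lidocaine and ivabradine differed by 1.40 (0.65 to 2.15) for Irs2 and by -0.25 (-0.58 to 0.08) for Ppargc1a. The group means of the 2 drugs thus stood in opposite order, with the interval for Ppargc1a including 0. For Ppargc1a this order rested largely on the third ivabradine library. Without it, the differences from control were 0.97 with ivabradine and 0.93 with lidocaine. Amiodarone and metoprolol differed by -0.27 (-0.74 to 0.21) for Sik1 and by 0.01 (-0.74 to 0.76) for Irs2. Both intervals include 0. For Ppargc1a, amiodarone and ivabradine differed by -0.78 (-1.11 to -0.44).

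Metoprolol and propranolol both block β-adrenergic receptors, metoprolol with selectivity for the cardiac subtype and propranolol without it. For Sik1 the log2 difference of metoprolol over propranolol was 1.08 ± 0.23 (SE; 95% interval 0.60 to 1.56), with all 3 metoprolol libraries above all 3 propranolol libraries, yet the adjusted p over all genes was 0.098 in limma. Irs2 differed by 1.18 ± 0.36 (0.43 to 1.93; adjusted p = 0.27 in limma), also without overlap. The differences were 0.32 ± 0.11 for Crem (0.09 to 0.55; adjusted p = 0.32 in limma) and 0.23 ± 0.16 for Ppargc1a (-0.10 to 0.57; adjusted p = 0.63 in limma). For Crem and Ppargc1a, too, the metoprolol libraries lay above all propranolol libraries. The share of all tested genes without overlap in this pair was not counted, so nothing is read from it. In this comparison 6 genes, 0.0483% of those tested, were called. Without the third ivabradine library, which enters only through the shared estimate of spread, the adjusted p of Sik1 was 0.0090 in limma, and over all fits without 1 library it ran from 0.0090 to 0.48.

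Covariation between libraries of the same group passed adjustment for Sik1 and Irs2 only, among the 6 pairs of genes. This was measured on deviations from the group means, so the group differences that chose the genes were removed. Sik1 and Irs2 deviated with the same sign in 18 of 21 libraries, with Pearson's r = 0.91 (adjusted p = 0.0018) and Spearman's rho = 0.90 (adjusted p = 0.0014), by two-sided exact permutation tests over 279936 orders within groups, adjusted over the 6 pairs. Without ivabradine libraries 3 and 2, the farthest from the median in Sik1, r was 0.85 (exact permutation p = 9.2e-04). The group means in this check still included these libraries, so it does not wholly remove their influence. Leaving out 1 library at a time, with group means taken anew, gave r of 0.79 to 0.94. In the same way, r without the 4 libraries with other tissues was 0.93.

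The pair of Ppargc1a and Crem had r = 0.64 and rho = 0.59, with the same sign in 14 of 21 libraries. Its exact permutation p for r was 0.048, and 0.15 after adjustment (0.11 for rho). Without ivabradine library 3 and lidocaine library 3 r was 0.48 (exact permutation p = 0.19), again with group means that still included them. The other 4 pairs had r of 0.52 (Sik1 and Ppargc1a, adjusted p = 0.33), 0.48 (Irs2 and Ppargc1a, 0.33), 0.39 (Sik1 and Crem, 0.37) and 0.16 (Irs2 and Crem, 0.70) in the same permutation test. All 4 of these values rested on the third ivabradine library. Without it, r was -0.0044 for Sik1 and Ppargc1a, 0.0094 for Irs2 and Ppargc1a, 0.035 for Sik1 and Crem, and -0.30 for Irs2 and Crem.

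**Figure D2:**
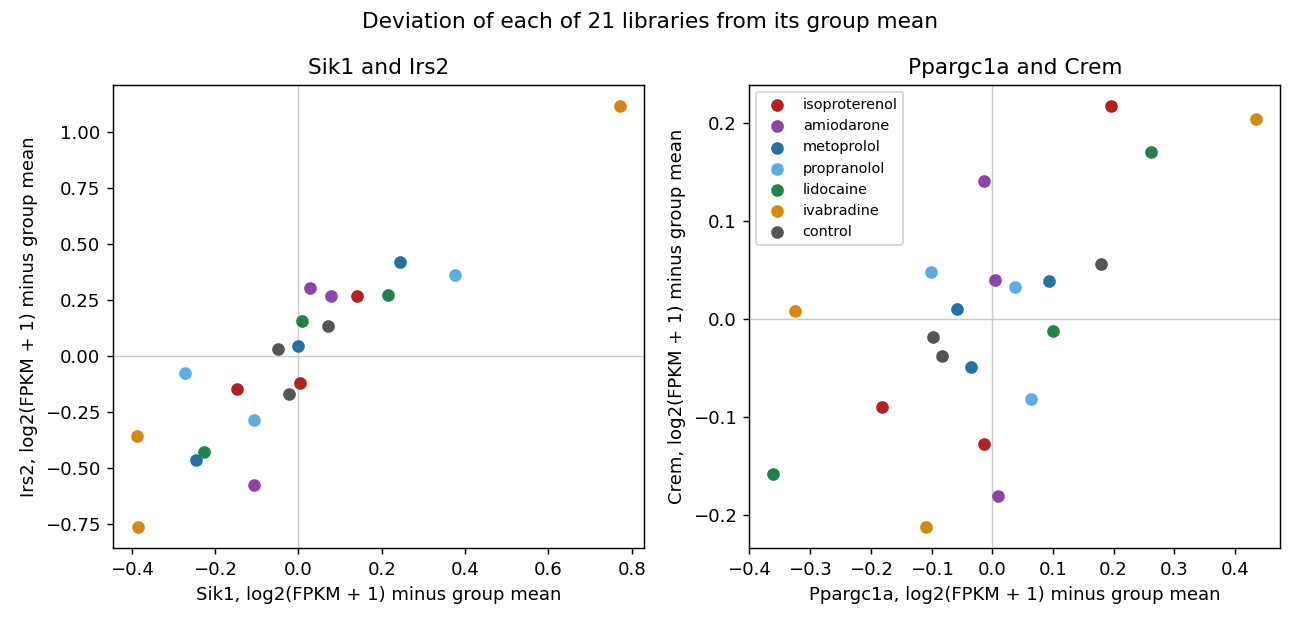
Deviation of each of the 21 libraries from its group mean on the log2(FPKM + 1) scale, Irs2 against Sik1 (left) and Crem against Ppargc1a (right), coloured by group. The Sik1 and Irs2 points follow a rising line (r = 0.91) with the third ivabradine library at its upper end, and the Ppargc1a and Crem points are more scattered (r = 0.64).

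The genes with the most similar profiles over the 21 libraries differed between the 4 genes. They were the 5 with the highest Pearson's r of log2(FPKM + 1), a description in which the points share libraries and depth. For Sik1 these were Nr4a1 (r = 0.97), Dusp5 (0.95), Irf2bpl (0.95), Pde4b (0.94) and Slc25a25 (0.94). For Irs2 they were Nr4a1 (0.96), Adamts1 (0.95), Fosl2 (0.95), Slc25a25 (0.95) and Dusp5 (0.93). Both lists thus began with Nr4a1, an orphan nuclear receptor induced early after stimulation, and shared Dusp5, a phosphatase of ERK kinases, and Slc25a25, a mitochondrial carrier of ATP-magnesium and phosphate.

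Nr4a1 was highest with lidocaine and lowest in controls, as Sik1 and Irs2 were, and spanned a wider range of ratios. It averaged 129 ± 43.9 FPKM with lidocaine, 74.3 ± 35.6 with metoprolol, 70.0 ± 18.8 with amiodarone, 64.5 ± 59.1 with ivabradine, 16.6 ± 4.41 with propranolol, 16.3 ± 2.60 with isoproterenol and 7.67 ± 0.855 in controls (SD, n = 3 each). Its ivabradine libraries stood at 31.30, 29.44 and 132.65 FPKM, so the third was high here too. On deviations from group means, r with Sik1 ran from 0.57 (Pde4b) to 0.93 (Nr4a1) over its 5 nearest genes. With Irs2 it ran from 0.72 (Dusp5) to 0.92 (Nr4a1). An r near the 0.91 of Sik1 and Irs2 was thus not particular to that pair. These genes were picked for likeness over all libraries, and the share over all genes was not counted.

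For Ppargc1a the nearest profiles were Ppara (r = 0.92), Myocd (0.91), Herc4 (0.89), Tbx20 (0.88) and Klf4 (0.87). Ppara encodes a nuclear receptor of fatty acid oxidation that PGC-1α coactivates, and Myocd and Tbx20 encode transcription regulators of cardiac muscle. Ppara averaged 10.2 ± 1.86 FPKM with ivabradine, 9.81 ± 2.07 with lidocaine, 7.95 ± 0.604 with metoprolol and 5.11 ± 0.352 in controls (SD, n = 3 each), the same order as Ppargc1a in these groups. For Crem they were Gtf2b (0.91), Impact (0.83), Zfp612 (0.80), Hand2 (0.80) and Nudt4 (0.79). Among the 4 genes themselves, r was 0.95 for Sik1 and Irs2, 0.76 for Sik1 and Ppargc1a, 0.71 for Ppargc1a and Crem, 0.59 for Irs2 and Ppargc1a, 0.51 for Sik1 and Crem, and 0.34 for Irs2 and Crem.

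**Figure D3:**
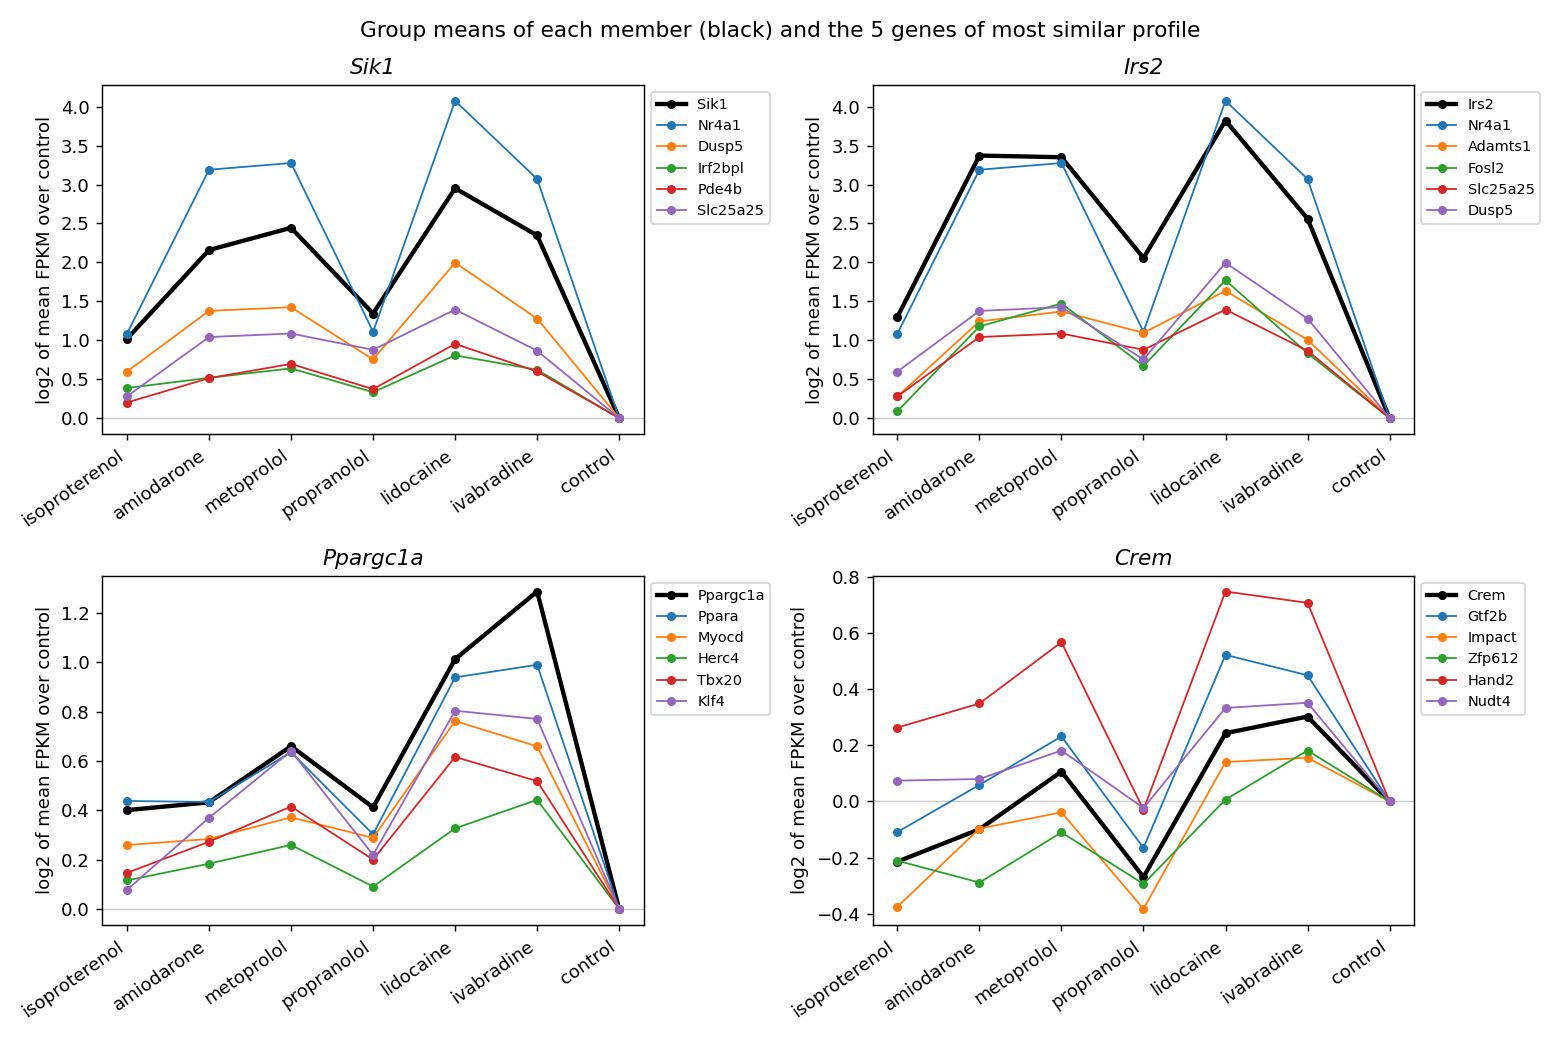
Group means of Sik1, Irs2, Ppargc1a and Crem (black) and of the 5 genes most similar to each (colours), as log2 of the mean FPKM of a drug group over the mean of the control group, which is 0 by construction at the right. Sik1 and Irs2 and their neighbours peak with lidocaine, and are lower with isoproterenol and propranolol than with amiodarone or metoprolol. Ppargc1a and Ppara are highest with ivabradine, and the Crem panel has the narrowest range.

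Other cAMP-responsive genes were examined as a list of 31 written from general knowledge, of which 23 could be tested, 19 of them at 1 FPKM or more in every library. The list was written with earlier results of these libraries in view, so its calls against control describe them and are no independent evidence of direction. Areg, Bdnf, Ptgs2, Pck1, G6pc, Sst, Vgf and Arc were too low. Against control, limma called 17 higher and 2 lower with lidocaine, 14 and 1 with amiodarone, 13 and 2 with metoprolol, 11 and 2 with ivabradine, 6 and 2 with propranolol, and 3 and 1 with isoproterenol. The isoproterenol count of genes called higher was 5 without the first or the third ivabradine library. Over all tested genes, the shares called higher were 10.6% with lidocaine, 8.47% with amiodarone, 9.48% with metoprolol, 7.91% with ivabradine, 6.98% with propranolol and 8.38% with isoproterenol. The shares called lower were 26.6%, 20.6%, 22%, 19.1%, 19.8% and 25.8% in the same order of drugs. The median log2 difference of the list was 0.78 with lidocaine, 0.62 with metoprolol, 0.50 with ivabradine, 0.48 with amiodarone, 0.17 with propranolol and 0.08 with isoproterenol, beside medians over all genes of -0.10 to -0.08. These comparisons share the 3 control libraries.

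The list members of smallest p over the 7 groups were Rgs2, Klf4 and Pde4d. Rgs2, which shortens G protein signals, averaged 29.1 ± 4.27 FPKM with lidocaine, 23.5 ± 1.35 with ivabradine, 22.3 ± 1.97 with metoprolol, 17.2 ± 1.05 with amiodarone, 16.4 ± 1.19 with propranolol, 13.3 ± 0.855 with isoproterenol and 11.2 ± 0.785 in controls (SD, n = 3 each). It was called in all drugs except isoproterenol, where the log2 difference was 0.23 (adjusted p = 0.056 in limma). Klf4, a zinc finger transcription factor, rose by 0.78 with lidocaine, 0.74 with ivabradine, 0.62 with metoprolol, 0.36 with amiodarone and 0.21 with propranolol on the log2 scale, and was 0.07 with isoproterenol, which was not called. Pde4d, a phosphodiesterase that degrades cyclic AMP, rose by 0.92 with lidocaine, 0.75 with ivabradine, 0.42 with metoprolol and 0.27 with amiodarone. Its differences of 0.14 with propranolol and 0.09 with isoproterenol were not called.

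Gadd45b and Mcl1 were the list members that fell, and they are named after their values were seen. Gadd45b, a stress-inducible regulator of growth arrest and DNA demethylation, averaged 4.70 ± 1.08 FPKM with isoproterenol, 4.34 ± 0.763 with amiodarone, 3.64 ± 0.363 with metoprolol, 4.19 ± 0.408 with propranolol, 4.35 ± 1.11 with lidocaine and 5.28 ± 0.784 with ivabradine, against 10.7 ± 1.12 in controls (SD, n = 3 each). Its log2 difference ran from -1.33 with metoprolol to -0.90 with ivabradine, and limma called it in all 6 drugs. Mcl1, which protects cells from apoptosis, fell by 0.24 with lidocaine, 0.17 with ivabradine and 0.17 with propranolol on the log2 scale. With metoprolol it fell by 0.13, a call at the threshold (adjusted p = 0.0499 in limma). Values were -0.13 with amiodarone (adjusted p = 0.051 in limma) and 0.08 with isoproterenol, neither called, so metoprolol and amiodarone hardly differed. Rescaling the libraries to a common median took the median of all genes to between -0.02 and -0.01, and left 1 gene of the list called lower with metoprolol, propranolol and ivabradine. With it, 7 genes of the list were called higher with isoproterenol, and the share of all called genes that were higher was 52.8% to 58.4% over the 6 drugs, against 24.5% to 30.2% as deposited.

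**Figure D4:**
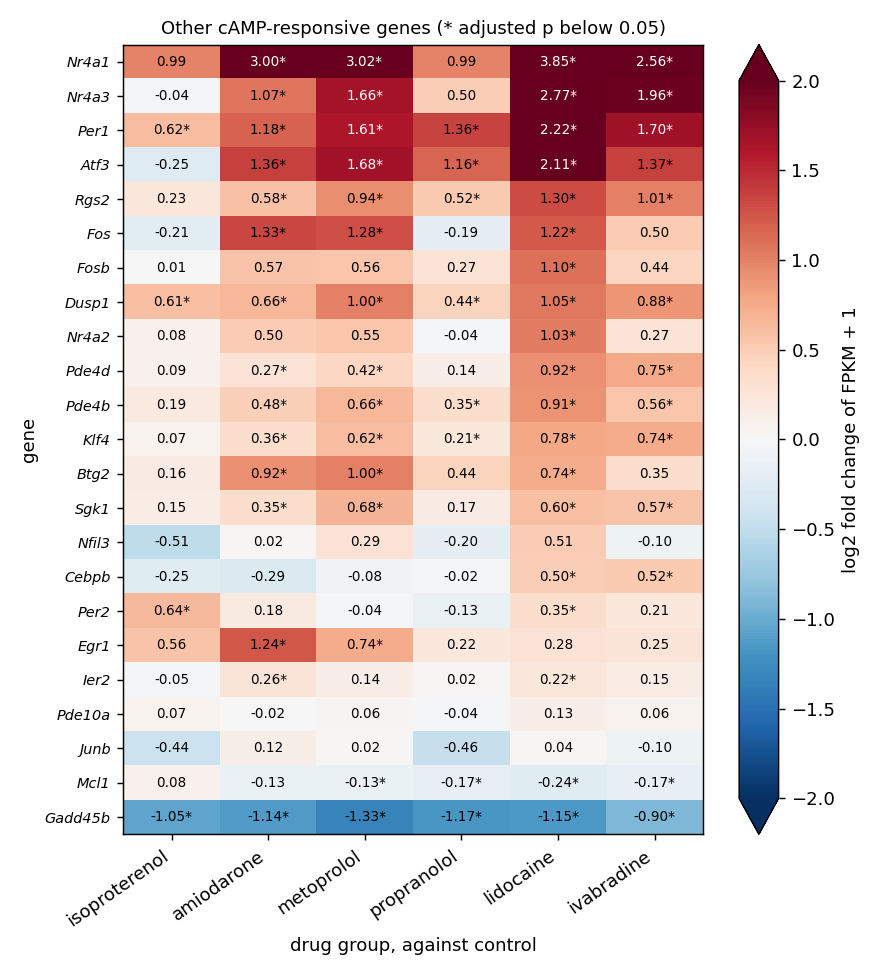
Log2 fold change of FPKM + 1 against control for the 23 tested cAMP-responsive genes other than the 4 described, by drug (columns), with asterisks at a limma adjusted p below 0.05 and colours that saturate at 2 and -2. The lidocaine column holds 17 genes called higher and the isoproterenol column 3, and Gadd45b in the bottom line is called lower in all 6 columns.

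The kinases, coactivators and other parts of the CREB pathway moved in both directions. Of 20 such genes, limma called 2 higher and 1 lower with isoproterenol, 4 and 3 with amiodarone, 3 and 4 with metoprolol, 3 and 4 with propranolol, 3 and 3 with lidocaine, and 3 and 4 with ivabradine. In either direction this was 15% with isoproterenol, 35% with amiodarone, metoprolol, propranolol and ivabradine, and 30% with lidocaine. All tested genes stood beside these at 34.2%, 29%, 31.4%, 26.8%, 27% and 37.1% in the same order. The shares of all tested genes called higher and called lower, given above for the cAMP-responsive genes, apply to this list and those below. Prkar2a, a regulatory subunit of protein kinase A, rose in all 6 drugs by 0.47 to 0.72 on the log2 scale, and averaged 19.9 ± 1.28 FPKM with metoprolol against 12.3 ± 0.997 FPKM in controls (SD, n = 3 each). Prkar1a, another regulatory subunit, rose by 0.17 to 0.31 with the 5 anti-arrhythmics and differed by 0.05 with isoproterenol, which was not called. Creb1, the gene of CREB itself, was lower in all 6 drugs, with log2 differences of -0.39 to -0.25. It averaged 3.53 ± 0.296 FPKM with lidocaine against 4.92 ± 0.224 FPKM in controls (SD, n = 3 each).

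The partners of Irs2 and Ppargc1a were read from lists of insulin signalling (23 genes) and of PGC-1α partners and targets (26 genes), all tested. In insulin signalling the counts called higher and lower were 5 and 2 with isoproterenol, 6 and 1 with amiodarone, 5 and 1 with metoprolol, 4 and 3 with propranolol, 6 and 4 with lidocaine, and 3 and 3 with ivabradine. In either direction these were 26.1% to 43.5% of the list over the 6 drugs, beside 26.8% to 37.1% of all tested genes, and 30.4% of the list beside 34.2% of all with isoproterenol. Foxo3, a transcription factor that insulin signalling keeps out of the nucleus, rose by 0.46 with isoproterenol, 0.41 with amiodarone, 0.42 with metoprolol and 0.23 with lidocaine, and was not called with propranolol (0.12) or ivabradine (0.14). Akt1, the kinase below PI3 kinase, rose by 0.17 to 0.37 with the anti-arrhythmics and was not called with isoproterenol (0.10). Foxo4, of the same family as Foxo3, rose by 0.42 with isoproterenol and differed by -0.12 to 0.12 with the 5 anti-arrhythmics, where it was not called. The adjusted p of Foxo4 in limma F tests was 0.0028 over the 7 groups and 0.55 over the 5 anti-arrhythmic groups.

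Among the PGC-1α partners and targets, the counts higher and lower were 5 and 4 with isoproterenol, 8 and 1 with amiodarone, 10 and 3 with metoprolol, 6 and 1 with propranolol, 9 and 2 with lidocaine, and 5 and 0 with ivabradine. In either direction these were 19.2% (ivabradine) to 50% (metoprolol) of the list, beside 27% and 31.4% of all tested genes with the same drugs. With isoproterenol they were 34.6% of the list beside 34.2% of all. By direction, the 10 of 26 called higher with metoprolol stood beside 9.48% of all tested genes, and the 3 called lower beside 22%. With ivabradine the 5 called higher stood beside 7.91%, and the 0 called lower beside 19.1%. Ppara rose by 0.86 with ivabradine, 0.80 with lidocaine, 0.55 with metoprolol, 0.38 with isoproterenol and 0.37 with amiodarone, and was not called with propranolol (0.26). Acadm, an enzyme of fatty acid β-oxidation, rose in all 6 drugs, by 0.49 with isoproterenol and by 0.20 to 0.28 with the others. Prkaa2, a catalytic subunit of AMP-activated kinase, rose by 0.49 to 0.56 with the anti-arrhythmics and was not called with isoproterenol (0.24).

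The list of MEF2 factors and class IIa histone deacetylases, which salt-inducible kinases act on, had 7 tested genes of 8. Counts higher and lower were 2 and 0 with isoproterenol, 3 and 1 with amiodarone, 2 and 1 with metoprolol, 1 and 1 with propranolol, 2 and 1 with lidocaine, and 1 and 1 with ivabradine. In either direction these were 28.6% to 57.1% of the 7 genes, beside 26.8% to 37.1% of all tested genes. Hdac7 was the gene that fell, by 0.54 with ivabradine, 0.42 with lidocaine, 0.35 with propranolol, 0.27 with metoprolol and 0.26 with amiodarone, and at -0.10 with isoproterenol it was not called. Mef2a rose by 0.22 to 0.37 with the 5 anti-arrhythmics and was 0.07 with isoproterenol, not called. Mef2d rose by 0.33 with isoproterenol, 0.30 with amiodarone, 0.30 with metoprolol and 0.35 with lidocaine, and was not called with propranolol (0.19) or ivabradine (0.18). Over the 4 lists of pathway genes together, 21, 27, 29, 23, 30 and 20 of 75 tested genes were called in either direction. This is in the order isoproterenol, amiodarone, metoprolol, propranolol, lidocaine and ivabradine, beside 34.2%, 29%, 31.4%, 26.8%, 37.1% and 27% of all tested genes. Called higher were 14, 21, 20, 14, 20 and 12, beside 8.38%, 8.47%, 9.48%, 6.98%, 10.6% and 7.91% of all. Called lower were 7, 6, 9, 9, 10 and 8, beside 25.8%, 20.6%, 22%, 19.8%, 26.6% and 19.1% of all. These counts were not tested as sets.

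Markers of other cells differed between groups and libraries. Summed mesothelial markers (3 genes) ran from 9.51 to 35.5 FPKM in drug libraries and from 7.80 to 13.0 FPKM in controls. Endothelial markers (4 genes) ran from 328 to 436 FPKM in drug libraries and from 392 to 455 FPKM in controls. Macrophage markers (4 genes) ran from 42.4 to 321 FPKM in drug libraries and from 123 to 475 FPKM in controls, with control 1 at the low end and control 3 at the high end. Neutrophil markers (3 genes) ran from 57.1 to 62.0 FPKM with amiodarone and from 5.99 to 25.4 FPKM in the other 5 drug groups, against 18.1, 122 and 18.0 FPKM in controls 1, 2 and 3. Fibroblast markers (4 genes) ran from 1205 to 1786 FPKM in drug libraries and from 1160 to 2221 FPKM in controls. Their part in the levels of the 4 genes was not tested. Of the 2 markers of brown fat, a tissue rich in PGC-1α, Ucp1 was at most 0.10 FPKM in any library. The other, Cidea, stood at 28.2 to 40.8 FPKM in drug libraries and at 33.6 to 34.5 FPKM in controls. Without the 4 libraries that carried the most Mylpf, Myl7, Sftpc or Alb, and likewise without lidocaine 1 alone, every log2 difference of the 4 genes from control moved by less than the spread between libraries of a group, which was 0.32 for Sik1, 0.50 for Irs2, 0.22 for Ppargc1a and 0.14 for Crem (SD, log2).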

How the data were processed

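Bulk RNA of 21 libraries was sequenced on a BGISEQ-500, and the authors deposited FPKM values per gene. HISAT, Bowtie2 2.2.5 and the build mm9 are named in the submitters' processing notes, and the labels describe selection as oligo dT or rRNA depletion. The counter and the annotation release are not given in the sources used here. No counts are used here, so absolute depth is unknown and no counting intervals are given. All value columns were mapped, with 0 left over, and 0 pairs of libraries were identical. Relative depth came from 883 low genes.

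The 12433 genes that reached 1 FPKM in 3 or more libraries were analysed as log2(FPKM + 1) with limma 3.58.1 in R 4.3.3, with 1 mean per group over all 21 libraries (14 residual degrees of freedom), empirical Bayes moderation with a mean-variance trend and Benjamini-Hochberg adjustment at 0.05. Genes were named as the 4 described, the 3 of smallest p over the 7 groups in each list, and the 5 of most similar profile to each. The 4 genes and the lists were chosen with earlier results of these data known. Libraries of the same number in the labels were checked for pairing, with residual correlations of -0.54 to 0.29 (median -0.03), and were not treated as pairs. The script was tested on simulated data.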

Additional observations from a re-analysis of the deposited data

How the results depend on the processing

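Differences of the 4 genes from control moved by less than the spread between libraries under every alternative (pseudocount of 0.1, no filter, filter of 5 FPKM, median-of-ratios rescaling, compared groups alone, robust moderation, no variance trend, replicate block, and, chosen after the data were examined, without the 4 libraries with other-tissue markers) and without each library in turn, except without the third ivabradine library: ivabradine against control ranged from 1.72 to 2.30 for Sik1 and from 1.29 to 2.23 for Irs2. The margin used here, up to 0.50 on the log2 scale for Irs2, is wide, so staying within it says little about smaller shifts. Metoprolol against propranolol ranged from 0.94 to 1.27 for Sik1, and the call was gained without the third ivabradine library. In the F test across anti-arrhythmics, the adjusted p of Ppargc1a from limma was 0.085 with no filter, 0.060 for compared groups alone, 0.052 with robust moderation, 0.057 with the replicate block and 0.23 without the 4 libraries, where that of Sik1 was 0.20. Without 1 library these p ranged from 4.0e-04 to 0.064 (Sik1), 0.0094 to 0.083 (Ppargc1a), 0.0023 to 0.19 (Irs2) and 0.037 to 0.21 (Crem). That test called 76 genes with no filter, 11 without the 4 libraries and 70 to 139 without 1 library. Without the third ivabradine library the within-group r was -0.0044 for Sik1 and Ppargc1a (range -0.0044 to 0.62), -0.30 for Irs2 and Crem (range -0.30 to 0.32), 0.0094 for Irs2 and Ppargc1a and 0.035 for Sik1 and Crem. Genes called against control were 1616 (ivabradine) for compared groups alone, and 1940 (isoproterenol), 1117 (amiodarone), 1355 (propranolol) and 2229 (ivabradine) without the 4 libraries. Without 1 library they were 2778 to 4539 (isoproterenol), 2038 to 3945 (amiodarone), 2388 to 4263 (metoprolol), 2000 to 3686 (propranolol) and 2217 to 3827 (ivabradine). Falls of over 1.5 times came without isoproterenol 3, amiodarone 2 or control 2, metoprolol 1 or control 2, propranolol 2 or control 2, and ivabradine 3, and in the F test when library 1 or 2 of lidocaine, 1 or 3 of propranolol, or 1 or 2 of amiodarone was left out. The 4 pathway lists together had 13 called genes (ivabradine) for compared groups alone, 10 (isoproterenol), 8 (amiodarone) and 10 (propranolol) without the 4 libraries, and 16 to 29 (amiodarone), 18 to 32 (metoprolol) and 13 to 26 (propranolol) without 1 library, with such falls without amiodarone 2, metoprolol 1, and propranolol 1, propranolol 2 or control 2. Of the cAMP-responsive genes, 7 were higher with isoproterenol after rescaling and 2 to 5 without 1 library. The number lower was 1 with metoprolol for every alternative except the filter of 5 FPKM. It was 2 with isoproterenol for no filter, compared groups alone and the replicate block, and 2 with amiodarone for the filter of 5 FPKM. It was 1 with ivabradine for rescaling, compared groups alone and without the 4 libraries, and 1 with propranolol for rescaling and without the 4 libraries. Without 1 library it was 1 to 2, or 1 to 3 with propranolol. Same-numbered libraries shared only a number (residual correlations -0.54 to 0.29), and the replicate block changed no other call of the 4 genes. The causes were not tested. As no counts were used here, the precision of low values such as Irs2 in controls is known only from 3 libraries a group.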
